A study of Rattus norvegicus and Bos taurus with 6 samples.

Results

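Expression of 10 mechanosensitive channel genes was followed across the 6 libraries of a single-nucleus RNA-seq study of adipose tissue. They were Piezo1, Piezo2, Trpv4, Trpc1, Trpc6, Trpm7, Pkd1, Pkd2, Tmem63a and Tmem63b, matched by gene symbol in any case. The matching used no measured value, but the list was drawn up with earlier results of these data known. All 10 were among the 25629 genes of the 10x Genomics library and the 36075 genes of the cow library. Of the 38697 genes listed for the rat Parse libraries, 9 were members, and Pkd2 was not analysed there. The 6 libraries, 1 for each condition, came from snap-frozen fat. Rat mesenteric perivascular adipose tissue (mesPVAT) was run on the 10x Genomics platform (batch 1). The batches are numbered here by platform, which the sample titles name. The titles give no batch. On the Parse platform (batch 2) were rat mesPVAT, rat retroperitoneal (RP) fat, the PVAT of the rat thoracic aorta (taPVAT) and rat brown adipose tissue (BAT) from below the scapula. The remaining library was cow subcutaneous white adipose tissue (WAT) on the Parse platform, also batch 2. The rats were male, of the Dahl salt-sensitive strain SS/HsdMcwiCrl, on a normal diet. The cow tissue came from lactating Holstein females. No animal was treated, ages were not given in the sources used here, and it was not stated whether a library pooled animals.

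Mechanosensitive channels let cations into the cell when the membrane is stretched or bent, so that pressure, flow or swelling becomes a calcium or voltage signal. The Piezo proteins are very large channels that open directly under membrane tension. Piezo1 is best known for sensing blood flow in endothelium and Piezo2 for touch and body position in sensory neurons. The TRP family opens to many stimuli: Trpv4 to osmotic swelling and heat, Trpc6 to diacylglycerol in smooth muscle and kidney podocytes, Trpc1 within complexes with other subunits, and Trpm7 carries magnesium and zinc and has a kinase domain. Polycystin 1 (Pkd1) and polycystin 2 (Pkd2) form a receptor and channel complex in the primary cilium and are mutated in polycystic kidney disease. Tmem63a and Tmem63b belong to the OSCA/TMEM63 family of stretch-activated channels. In fat, adipocytes swell as they store lipid, and perivascular depots surround vessels that pulse.

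Levels were unique molecular identifiers (UMIs) summed over all nuclei of a library and scaled to the total UMIs of the library as CPM. Intervals are exact 95% Poisson intervals for levels, exact binomial intervals for shares and exact conditional intervals for ratios. With 1 library per condition they cover counting error only, there is no replicate error, and no test between conditions was possible. Totals lay between 845316 UMIs (RP fat) and 16827260 UMIs (cow WAT), and median UMIs per nucleus from 161 in the 10x library to 3530 in cow WAT. A count of 0 allowed a level of up to 3.55 CPM in RP fat and 0.178 CPM in cow WAT. No barcode was shared between libraries. Because depth differed, levels were compared between libraries and shares of positive nuclei were given also after thinning each nucleus of at least 200 UMIs to 200.

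Nuclei were placed by the marker they held. A nucleus with a UMI of exactly 1 of 5 genes was called Plin1-only (a lipid droplet coat protein of adipocytes), Ptprb-only (an endothelial phosphatase), Pdgfra-only (a receptor of adipose stem and progenitor cells, ASPCs), Notch3-only (a receptor of pericytes and smooth muscle) or Ptprc-only (the leukocyte antigen CD45). In taPVAT these classes held 1118, 230, 73, 64 and 150 of 2708 nuclei. In BAT they held 1386, 316, 18, 67 and 51 of 2699, and in cow WAT 111, 321, 158, 231 and 205 of 2297. The share of nuclei with none of the 5 genes was 84.8% on 10x, 80.0% for RP fat, 60.7% for mesPVAT on Parse, 23.4% for cow WAT, 17.7% for taPVAT and 12.2% for BAT. Other markers of the same cell types stood at higher CPM in their own class than in the other 4 classes in 29 of 30 cases, by 2.27-fold to 56.8-fold. The exception was the Ptprc-only class of RP fat, where the other leukocyte markers were at 0.777 times the level of the other classes. Notch3-only nuclei of taPVAT and BAT also held skeletal muscle markers at 20.6 and 58.2 times the level of the other classes (3 and 2 of 6 markers at least 2-fold), and those of mesPVAT on Parse at 4.26 times (4 of 6), so they are named here by the marker and not as mural cells. The same Notch3-only nuclei held ASPC markers at 3.78-fold in taPVAT and 3.22-fold in BAT, with 5 of 7 markers at least 2-fold in each. Pdgfra-only nuclei of taPVAT held lymphatic endothelial markers at 4.36-fold (2 of 4) and mesothelial markers at 5.78-fold (4 of 6). Those of mesPVAT on Parse held mesothelial markers at 4.15-fold (4 of 6). Ptprc-only nuclei of BAT held Schwann cell markers at 8.78-fold (3 of 5) and skeletal muscle markers at 5.41-fold (2 of 6), and those of taPVAT skeletal muscle markers at 3.68-fold (4 of 6). The part of these other markers in the class values of Piezo2, Trpc6, Pkd1 and Trpv4 was not tested. UMIs of free RNA can be counted in any nucleus, and in RP fat the classes differed least in their own markers, by 0.777-fold to 5.88-fold. The part of free RNA in the class values was not tested.

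Piezo1 stood at 369 CPM in taPVAT (interval 353 to 386), 311 CPM in BAT (297 to 325), 273 CPM in the library labelled mesPVAT (249 to 300), 164 CPM in RP fat (138 to 194) and 54.7 CPM in cow WAT (51.2 to 58.3). The 10x library of mesPVAT gave 796 CPM (747 to 847). Every rat library was above cow WAT, and among the rat Parse libraries only BAT and mesPVAT had touching intervals. A level summed over nuclei cannot tell fewer nuclei of a type from less RNA per nucleus. Piezo1 UMIs were spread widely: in taPVAT 992 nuclei held 1884 UMIs and the 10 nuclei with most held 5.36% of them.

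**Figure D1:**
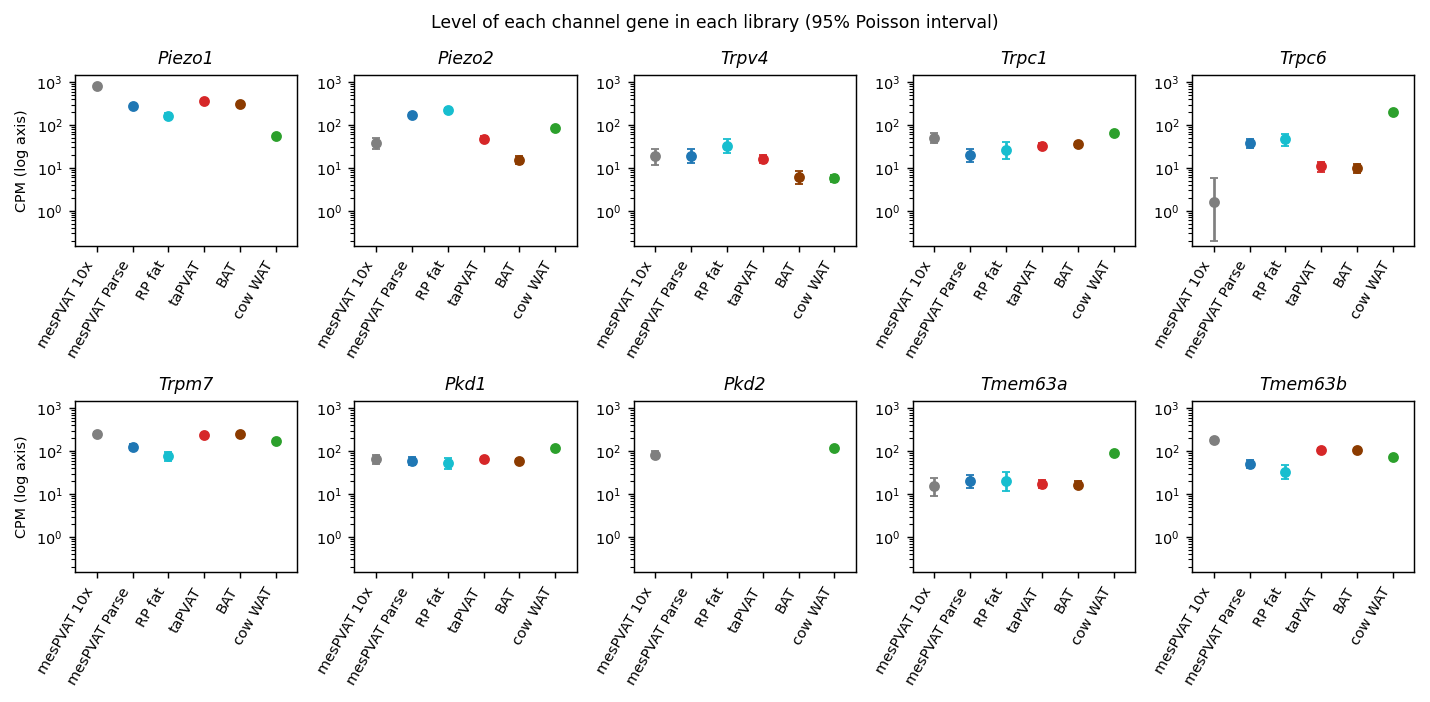
CPM of each of the 10 genes (log axis) in each library, with 95% Poisson intervals that cover counting error only. Piezo1 was lowest in cow WAT at 54.7 CPM and Trpc6 highest there at 201 CPM. Pkd2 has values in 2 libraries.

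Within the rat libraries, the Plin1-only nuclei held Piezo1 at the highest level of the 5 classes in each of the 5 rat libraries. In taPVAT the level was 431 CPM in Plin1-only nuclei (988 UMIs), against 331 CPM in Ptprc-only, 203 CPM in Pdgfra-only, 186 CPM in Ptprb-only and 46.7 CPM in Notch3-only nuclei. In BAT the values were 356 CPM in Plin1-only (1159 UMIs), 220 CPM in Ptprb-only, 147 CPM in Ptprc-only and 82.6 CPM in Notch3-only nuclei, and none of 18 Pdgfra-only nuclei held a UMI. The ratio of Plin1-only to the other 4 classes was 2.08 (1.70 to 2.56) in taPVAT, 1.99 (1.63 to 2.45) in BAT, 1.40 (1.06 to 1.87) in mesPVAT on Parse and 4.07 (2.59 to 6.71) in mesPVAT on 10x. RP fat gave 1.47 (0.788 to 2.71) on 22 UMIs, an interval that includes 1. In RP fat the Ptprc-only value was nearly the same as the Plin1-only value, at 273 against 274 CPM.

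In the cow nuclei the Plin1-only class was the lowest of the 5. PIEZO1 stood at 138 CPM in Ptprb-only nuclei (192 UMIs; 120 to 159), 44.2 CPM in Ptprc-only, 42.0 CPM in Notch3-only, 32.5 CPM in Pdgfra-only and 17.6 CPM in Plin1-only nuclei (12 UMIs; 9.08 to 30.7). The ratio of Ptprb-only to the other classes was 3.93 (3.10 to 5.00) and that of Plin1-only 0.234 (0.12 to 0.416). The contrast was smaller over all nuclei with a marker, alone or with others, groups that share nuclei. PIEZO1 was then at 40.5 CPM with Plin1 (276 UMIs), 42.8 CPM with Pdgfra and 47.3 CPM with Ptprc. It was at 51.3 CPM with Notch3 and 70.7 CPM with Ptprb. A UMI was found in 37.4% of Ptprb-only nuclei (median 3401 UMIs per nucleus) and in 9.91% of Plin1-only nuclei (median 3081). In taPVAT the corresponding shares were 15.2% of Ptprb-only nuclei (median 827) and 47.5% of Plin1-only nuclei (median 1712.5). Species, sex, lactation, depot, reference annotation and depth changed together between the rat and cow libraries and cannot be told apart. In the paper, cow nuclei also passed a finer last filter that was left out for rat nuclei.

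Placing nuclei by panels of markers kept the order of adipocyte and endothelial nuclei in the deeper libraries. The panels of these cell types include the 5 single genes, so the placings overlap and are not separate checks. By panels, Piezo1 in taPVAT was 425 CPM in adipocyte-panel and 216 CPM in endothelial-panel nuclei, and in BAT 349 and 218 CPM. In taPVAT the order of the other classes was not kept. ASPC-panel nuclei held 194 CPM, below the endothelial-panel nuclei, whereas Pdgfra-only nuclei stood above Ptprb-only nuclei. Mural-panel nuclei of taPVAT held 162 CPM. In cow WAT the order was 29.95 CPM in adipocyte-panel and 117 CPM in endothelial-panel nuclei. In the 10x library Piezo1 was 1158 CPM in adipocyte-panel nuclei (531 UMIs), 497 CPM in mesothelial-panel, 459 CPM in lymphatic-panel, 387 CPM in endothelial-panel and 205 CPM in ASPC-panel nuclei. Nuclei with none of the 5 single genes held Piezo1 at 770 CPM there, close to the 796 CPM of the whole library.

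**Figure D2:**
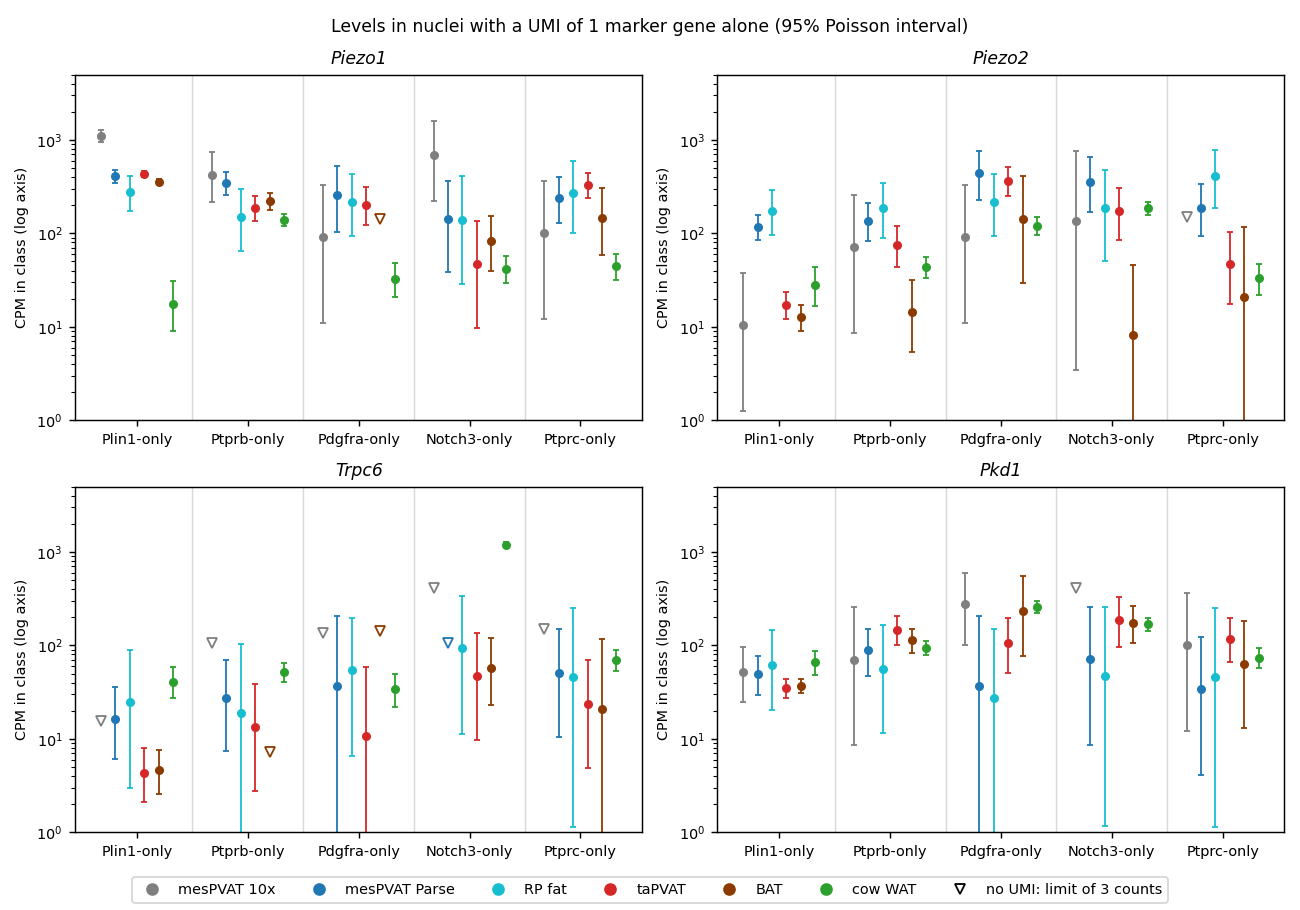
CPM (log axis) of Piezo1, Piezo2, Trpc6 and Pkd1 in nuclei with a UMI of only 1 of the 5 marker genes, coloured by library, with 95% Poisson intervals; open triangles mark the limit of 3 counts where no UMI was found. Piezo1 in Plin1-only nuclei was 274 to 1102 CPM in the rat libraries and 17.6 CPM in cow WAT, and Trpc6 in Notch3-only nuclei of cow WAT was 1193 CPM.

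Piezo2 had another order of libraries than Piezo1. It stood at 220 CPM in RP fat (190 to 254), 169 CPM in mesPVAT on Parse (150 to 190), 83.0 CPM in cow WAT (78.7 to 87.5), 48.0 CPM in taPVAT (42.2 to 54.4), 37.2 CPM in mesPVAT on 10x (27.2 to 49.6) and 15.5 CPM in BAT (12.6 to 18.9). The rat Parse white depots were the highest and BAT the lowest. On RefSeq's GRCr8 annotation Piezo2 spans 377 kb (chromosome 18, 58738734 to 59115252), the longest of the 10 genes, and Piezo1 62.2 kb (chromosome 19, 67453120 to 67515347). Divided by this span, the level in taPVAT was 5.94 CPM per kb for Piezo1 and 0.128 CPM per kb for Piezo2.

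In taPVAT, mesPVAT on Parse and mesPVAT on 10x, Plin1-only nuclei held Piezo2 at 0.128, 0.58 and 0.162 times the level of the other classes, with intervals below 1. The 10x ratio rested on 2 UMIs in Plin1-only nuclei. Of the 46 Piezo2 UMIs on 10x, 39 were in nuclei with none of the 5 markers. Its classes were thus under the limit of 20 UMIs for a class ratio. In taPVAT, Pdgfra-only nuclei held 363 CPM (34 UMIs; 251 to 507), Notch3-only 171 CPM, Ptprb-only 75.3 CPM, Ptprc-only 47.3 CPM and Plin1-only 17.03 CPM. The Pdgfra-only ratio was 13.5 (8.68 to 20.5), and 15 of its 34 UMIs came from a single nucleus, without which the ratio was 7.77 (4.43 to 13.01). In Notch3-only nuclei 7 of 11 UMIs came from a single nucleus, and the ratio of 4.88 became 1.86 (0.497 to 4.92) without it. The Ptprb-only ratio of 2.15 likewise became 1.42 (0.684 to 2.66) without 1 nucleus of 6 UMIs. Nuclei with most ASPC-panel markers in taPVAT held 363 CPM on 116 UMIs. In mesPVAT on Parse, Pdgfra-only nuclei held 439 CPM (12 UMIs) and Plin1-only 118 CPM, and the ratio for Pdgfra-only was 3.13 (1.56 to 5.76). The 10x library had only 2 UMIs in Pdgfra-only nuclei, but 196 CPM in ASPC-panel nuclei (22 UMIs) against 8.72 CPM in adipocyte-panel nuclei (4 UMIs). In RP fat the 5 class values lay between 174 and 409 CPM on 4 to 14 UMIs each, and nuclei with none of the markers held 222 CPM. Each of the 5 ratios had an interval that included 1. BAT had 3 UMIs in Pdgfra-only nuclei and a ratio of 11.05 (2.20 to 34.3). Its 87 ASPC-panel nuclei held 33.5 CPM on 4 UMIs (9.12 to 85.7) against 14.4 CPM in adipocyte-panel nuclei, and its Plin1-only ratio of 0.691 (0.349 to 1.49) included 1.

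In cow WAT, PIEZO2 was highest in Notch3-only nuclei at 185 CPM (167 UMIs), then Pdgfra-only at 121 CPM, Ptprb-only at 44.0 CPM, Ptprc-only at 32.9 CPM and Plin1-only at 27.8 CPM. The Notch3-only ratio was 3.44 (2.78 to 4.25) and the Plin1-only ratio 0.314 (0.187 to 0.499). Of the PIEZO1-positive cow nuclei 38.6% also held PIEZO2, and 35.8% of PIEZO2-positive nuclei held PIEZO1, where 25.8% and 23.9% of all nuclei did. The 212 nuclei with both had a median of 15423 UMIs, above the 7387 of PIEZO1-positive and the 6592.5 of PIEZO2-positive nuclei. In BAT 4.08% of Piezo1-positive nuclei held Piezo2, where 3.33% of all nuclei did.

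Trpc6 was highest in the cow library. Its level there was 201 CPM (195 to 208; 3387 UMIs), against 46.1 CPM in RP fat, 37.4 CPM in mesPVAT on Parse, 10.8 CPM in taPVAT and 9.81 CPM in BAT. On 10x mesPVAT only 2 UMIs were counted, 1.62 CPM (0.196 to 5.84). The cow interval lay above those of all 5 rat libraries. In cow Notch3-only nuclei TRPC6 reached 1193 CPM on 1079 UMIs (1123 to 1267), and in the other 4 classes 33.9 to 70.3 CPM. The ratio was 23.5 (20.1 to 27.7), and 22.5 (19.3 to 26.5) without the nucleus with most UMIs. A UMI was present in 58.4% of Notch3-only nuclei and in 10.8% to 14.4% of the nuclei of the other classes, at class medians between 3071 and 3657.5 UMIs.

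In the rat, Trpc6 had few UMIs but the highest class was again Notch3-only in BAT, taPVAT and RP fat. BAT Notch3-only nuclei held 57.8 CPM on 7 UMIs with a ratio of 13.5 (4.69 to 34.7), and taPVAT 46.7 CPM on 3 UMIs with a ratio of 7.52 (1.41 to 26.0). RP fat had 2 UMIs and a ratio of 2.99 (0.295 to 16.7), and mesPVAT on Parse had none in 46 Notch3-only nuclei. Mural-panel nuclei held Trpc6 at 98.6 CPM in taPVAT (14 UMIs), 44.7 CPM in BAT (16 UMIs) and 1125 CPM in cow WAT (1379 UMIs), and immune-panel nuclei of BAT at 103 CPM on 7 UMIs. Cow nuclei placed by panels held more TRPC6 outside the mural panel than the single-marker classes did, at 259.8 CPM in endothelial-panel nuclei (962 UMIs), 114 CPM in immune-panel and 104 CPM in ASPC-panel nuclei.

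Trpc1 stood at 66.0 CPM in cow WAT, 50.1 CPM on 10x, 35.6 CPM in BAT, 32.0 CPM in taPVAT, 26.0 CPM in RP fat and 19.9 CPM in mesPVAT on Parse, and each neighbour in that order overlapped the next. In cow WAT it was highest in Notch3-only nuclei at 165 CPM (149 UMIs; ratio 3.15, 2.53 to 3.92) and lowest in Ptprc-only nuclei at 21.5 CPM. In BAT it was highest in Plin1-only nuclei, at 43.7 CPM on 142 UMIs, with a ratio of 3.29 (1.62 to 7.77), and Ptprb-only nuclei held 7.27 CPM on 3 UMIs. taPVAT Plin1-only nuclei gave a ratio of 1.63 (0.837 to 3.54), which includes 1. In cow WAT 45.9% of TRPC1-positive nuclei held TRPC6 and 42.3% of TRPC6-positive nuclei held TRPC1, where 25.8% and 23.8% of all nuclei did. The nuclei with both had a median of 8489 UMIs, against 7385 of TRPC1-positive and 5562 of TRPC6-positive nuclei. The median of all cow nuclei was 3530.

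Trpv4 had few UMIs in every library, 23 to 96. It stood at 33.1 CPM in RP fat, 19.3 CPM in mesPVAT on Parse, 18.6 CPM on 10x, 16.1 CPM in taPVAT (12.8 to 19.96), 6.01 CPM in BAT (4.26 to 8.26) and 5.71 CPM in cow WAT. In taPVAT its highest class was Ptprc-only, at 63.0 CPM on 8 UMIs (ratio 5.81, 2.29 to 13.02). BAT likewise held 63.2 CPM on 3 UMIs in Ptprc-only nuclei (ratio 15.03, 2.81 to 52.5), and mesPVAT on Parse 51.1 CPM on 3 UMIs. Immune-panel nuclei had 83.2 CPM in taPVAT (16 UMIs) and 103 CPM in BAT (7 UMIs), against 11.003 and 3.92 CPM in adipocyte-panel nuclei. In cow WAT the class values were 3.40 to 12.2 CPM and Ptprc-only nuclei were the lowest, on 3 UMIs.

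Trpm7 was not 2-fold higher in any class of the libraries with at least 20 UMIs over the classes. Its levels were 255 CPM on 10x, 250 CPM in BAT, 234 CPM in taPVAT, 178 CPM in cow WAT, 126 CPM in mesPVAT on Parse and 75.7 CPM in RP fat. Across the 5 classes it ran from 232 to 276 CPM in taPVAT, 149 to 283 CPM in BAT and 102 to 199 CPM in cow WAT. RP fat, with fewer UMIs, gave a Plin1-only ratio of 2.67 (0.769 to 10.35) on 8 UMIs. The lowest cow value, 102 CPM, was in Plin1-only nuclei (ratio 0.564, 0.435 to 0.722), while in taPVAT and BAT the Plin1-only ratios were 0.925 (0.762 to 1.13) and 0.966 (0.811 to 1.16). Ratios with an interval below 1 were also found in Notch3-only nuclei of cow WAT (0.801, 0.658 to 0.97) and BAT (0.599, 0.354 to 0.953) and in Plin1-only nuclei of mesPVAT on Parse (0.648, 0.429 to 0.976).

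**Figure D3:**
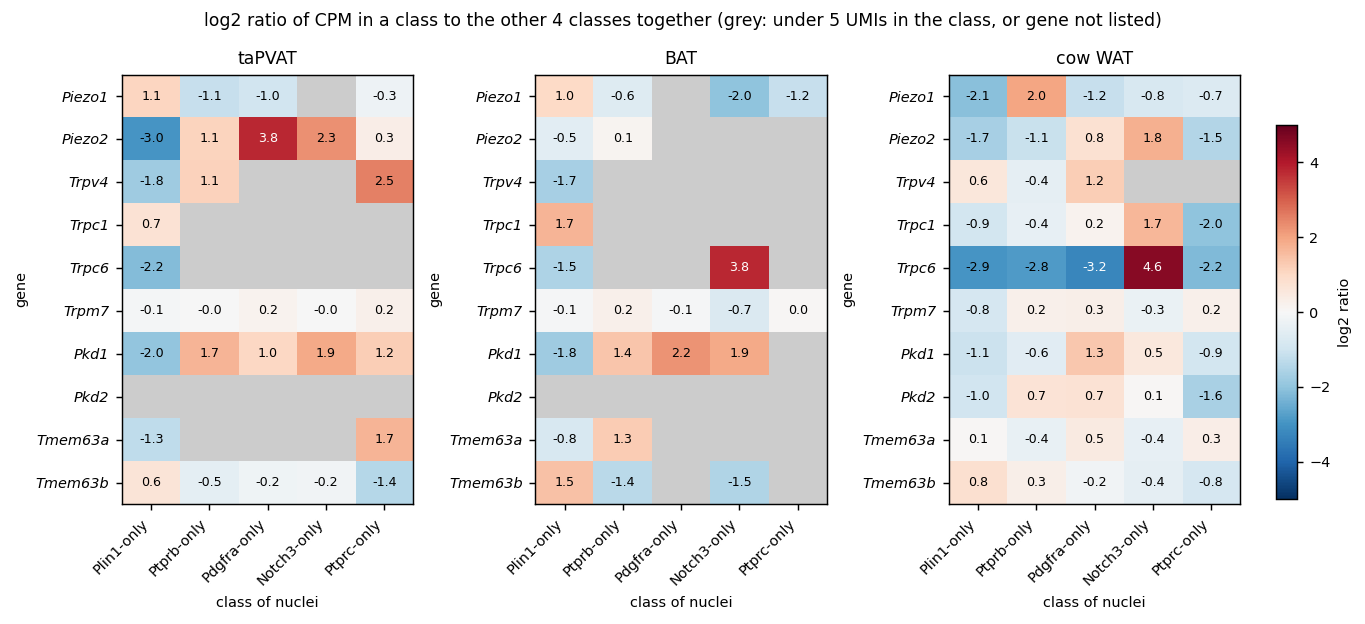
log2 ratio of the CPM in each class of nuclei to that in the other 4 classes together, for the 10 genes in the 3 libraries with more than 2000000 UMIs; grey cells had under 5 UMIs in the class or the gene was not listed. The highest ratio shown, 23.5 before taking the log2, was TRPC6 in cow Notch3-only nuclei, and Trpm7 ratios lay between 0.564 and 1.21.

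Pkd1 was spread evenly over rat libraries and unevenly over nuclei. It stood at 65.9 CPM in taPVAT, 64.6 CPM on 10x, 59.2 CPM in mesPVAT on Parse, 59.0 CPM in BAT and 53.2 CPM in RP fat, with overlapping intervals, and at 121 CPM in cow WAT (116 to 126). Plin1-only nuclei held least in taPVAT, BAT and cow WAT. In taPVAT the class values were 34.9 CPM in Plin1-only, 107 CPM in Pdgfra-only, 118 CPM in Ptprc-only, 146 CPM in Ptprb-only and 187 CPM in Notch3-only nuclei, and the Plin1-only ratio was 0.255 (0.183 to 0.356). BAT gave a Plin1-only ratio of 0.293 (0.218 to 0.395), with 36.9 CPM in Plin1-only and 236 CPM on 5 UMIs in Pdgfra-only nuclei. In cow WAT the Plin1-only ratio was 0.478 (0.344 to 0.649) and Pdgfra-only nuclei were highest at 258 CPM (190 UMIs; ratio 2.52, 2.11 to 3.00). Pkd1 was at least 2-fold higher in Pdgfra-only nuclei than in the other 4 classes in 4 of 5 libraries with enough UMIs. The ratios were 2.06 in taPVAT (0.968 to 3.91), 4.73 in BAT (1.52 to 11.2), 4.85 on 10x (1.53 to 13.4) and 2.52 in cow WAT. The 10x ratio rested on 6 UMIs in 4 nuclei. In mesPVAT on Parse the ratio was 0.626 on 1 UMI. The taPVAT ratio fell below 2-fold, to 1.69 (0.717 to 3.43), without 1 nucleus of 2 UMIs. The BAT and 10x ratios, on fewer UMIs, were not checked in this way. Other classes also passed 2-fold for Pkd1. In taPVAT the ratios were 3.22 in Ptprb-only (2.12 to 4.77), 3.71 in Notch3-only and 2.34 in Ptprc-only nuclei. In BAT they were 2.63 in Ptprb-only (47 UMIs; 1.85 to 3.67) and 3.70 in Notch3-only nuclei (21 UMIs; 2.23 to 5.83). In taPVAT and BAT most UMIs compared with the Pdgfra-only class came from Plin1-only nuclei, the class lowest in Pkd1.

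Pkd2 had values in 2 libraries, 84.0 CPM on 10x (68.7 to 102) and 119 CPM in cow WAT (114 to 124). In cow WAT it was highest in Pdgfra-only nuclei at 182 CPM and Ptprb-only nuclei at 165 CPM, and lowest in Ptprc-only nuclei at 45.4 CPM. Both polycystins were therefore above their other classes in cow Pdgfra-only nuclei and below them in Plin1-only nuclei, where PKD2 had a ratio of 0.509 (0.368 to 0.689). Of PKD1-positive cow nuclei 52.4% held PKD2, and of PKD2-positive nuclei 58.4% held PKD1, where 35.3% and 39.4% of all nuclei did. The nuclei with both had a median of 11222.5 UMIs, against 6285.5 and 7326. On 10x 2 nuclei held both.

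Tmem63a was higher in cow WAT than in every rat library, and the cow level of Tmem63b lay within the rat range. Tmem63a was at 91.6 CPM in cow WAT (87.1 to 96.3) and at 15.4 to 20.1 CPM in the 5 rat libraries, whose intervals all overlapped. Tmem63b was at 179 CPM on 10x, 108 CPM in taPVAT, 106 CPM in BAT, 72.9 CPM in cow WAT, 50.7 CPM in mesPVAT on Parse and 33.1 CPM in RP fat. In Plin1-only nuclei Tmem63b stood at 130 CPM in taPVAT (298 UMIs; ratio 1.55, 1.12 to 2.18), 129 CPM in BAT (419 UMIs; ratio 2.77, 1.89 to 4.22) and 110 CPM in cow WAT (75 UMIs; ratio 1.75, 1.33 to 2.27). Leaving out 1 nucleus with 14 UMIs lowered the cow ratio to 1.56. In mesPVAT the Plin1-only ratio of Tmem63b was 0.934 on 10x (30 UMIs; 0.473 to 1.95) and 1.07 on Parse (15 UMIs; 0.451 to 2.67). Both intervals included 1. Tmem63a differed from Tmem63b in taPVAT and cow WAT: its Plin1-only ratio was 0.412 in taPVAT (0.201 to 0.881) and 1.04 in cow WAT (0.780 to 1.36).

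Shares of positive nuclei at full depth had another order than the levels. Piezo1 was found in 39.1% of nuclei in BAT, 36.6% in taPVAT, 23.9% in cow WAT, 13.8% on 10x, 11.7% in mesPVAT on Parse and 4.56% in RP fat. With nuclei thinned to 200 UMIs the shares were 14.7% on 10x, 6.13% in taPVAT, 5.56% in BAT, 3.88% in mesPVAT on Parse, 3.13% in RP fat and 1.13% in cow WAT, which is the order of the CPM values. Trpm7 had the highest share in cow WAT at full depth, 45.4%, but 2.87% after thinning, below 5.38% on 10x, 5.00% in BAT and 4.58% in taPVAT. TRPC6 led the cow members after thinning, at 3.83%, and Trpv4 was at 0.0435%, which is 1 nucleus.

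**Figure D4:**
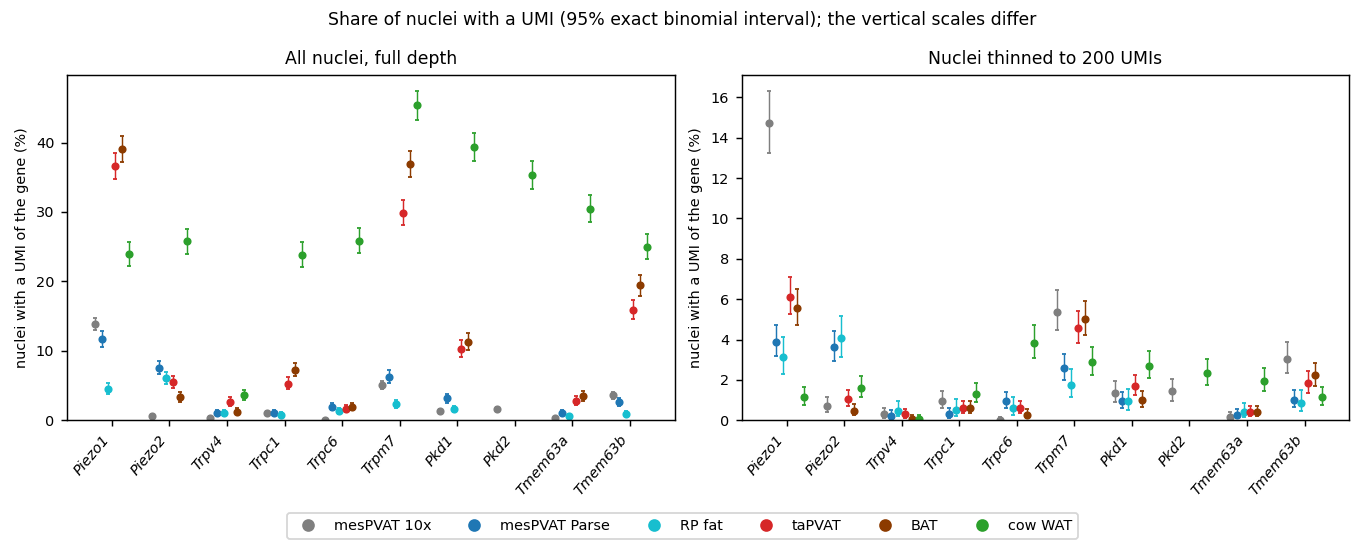
Percent of nuclei with at least 1 UMI of each gene in each library, at full depth (left) and after thinning nuclei of at least 200 UMIs to 200 (right), with 95% binomial intervals. Piezo1 was in 39.1% of BAT nuclei and 23.9% of cow nuclei at full depth, and in 5.56% and 1.13% after thinning.

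For taPVAT against BAT, a pair of brown depots, a gene was called where its CPM differed at least 2-fold with an interval that excluded 1, among genes with at least 20 UMIs. Of the 9 members 2 were called, both higher in taPVAT: Piezo2 at 3.10-fold (2.44 to 3.96) and Trpv4 at 2.67-fold (1.80 to 4.04). The 10 taPVAT nuclei with most Piezo2 held 35.9% of its 245 UMIs, and 1 nucleus held 30. In BAT the top 10 held 18.4% of 98 UMIs, with at most 3 in a nucleus. The interval does not cover such clustering, and the ratio without these nuclei was not computed. Of all 18696 genes tested 4.87% were called higher in taPVAT and 0.647% higher in BAT, and the median gene was 1.08-fold higher in taPVAT. The other 7 members lay between 0.897-fold and 1.19-fold. Piezo1 was 1.19-fold higher in taPVAT (1.12 to 1.27). Pdgfra-only nuclei, the class highest in Piezo2, made up 2.70% of nuclei in taPVAT and 0.667% in BAT, and Ptprc-only nuclei, the class highest in Trpv4, 5.54% and 1.89%. The part of these shares in the differences was not tested.

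Between the libraries labelled mesPVAT and RP fat, no member of 9 was called, where 4.88% of 18507 genes were called higher in mesPVAT and 8.15% higher in RP fat. The nearest were Trpm7 at 1.67-fold (1.25 to 2.24) and Piezo1 at 1.66-fold (1.37 to 2.03), both higher in mesPVAT, and Trpv4 at 0.583-fold (0.340 to 1.01). The median gene was at 0.840-fold in mesPVAT against RP fat. Scaled to that median, 8.83% of genes were higher in mesPVAT and 3.34% in RP fat, and still no member was called. The share of calls that were higher in mesPVAT went from 37.4% to 72.6%.

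Across platforms, mesPVAT on 10x against mesPVAT on Parse, 6 of 9 members were called. Piezo1 (2.91-fold), Tmem63b (3.52-fold), Trpc1 (2.52-fold) and Trpm7 (2.02-fold) were higher on 10x, where 22.3% of 11740 genes were. Piezo2 at 0.220-fold (0.157 to 0.301) and Trpc6, with 2 UMIs against 62, at 0.0432-fold (0.00512 to 0.163) were higher on Parse, where 30.9% of genes were. Pkd1 was at 1.09-fold (0.803 to 1.48). Platform, isolation protocol, batch and annotation changed together and cannot be told apart.

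Tmem63b was at least 2-fold higher in both brown than in both white rat Parse libraries, with 106 CPM against 50.7 CPM for the nearest pair (2.09-fold; 1.97-fold in sublibrary 2 alone, under the limit), and 5.54% of 24063 genes were separated in that direction. Piezo2 and Trpc6 were separated in the white direction, at 3.52-fold and 3.47-fold for the nearest pair, but so were 47.4% of genes. That share is of named and unnamed genes together. Among named genes it was 56.25% for spans of at least 300 kb (Piezo2) and 34.5% for 100 to 300 kb (Trpc6). For shorter named genes it was 18.3% to 31.3%. In the brown direction it was 8.15% for named genes of 10 to 30 kb, the group of Tmem63b. Trpm7 was higher in both brown libraries at 1.86-fold. Scaled to the median ratio of all genes, which was -1.40 on the log2 scale for brown over white, 27.2% of genes were higher in brown and 23.8% in white. Of the genes separated, 10.47% were higher in brown as summed and 53.3% after scaling. On that scale 5 members were at least 2-fold higher in brown, namely Pkd1, Tmem63b, Trpc1, Piezo1 and Trpm7, none was in white, and Piezo2 and Trpc6 were at 1.63-fold and 1.45-fold. The scale came from named and unnamed genes together. For named genes in the span groups below 300 kb, the median ratio of white to brown was under 2-fold, at 1.08 to 1.47. A scale from named genes alone was not tried, so these 5 calls hold for the scale of all genes only. The ratio of white to brown also rose with the span of the gene: its median was 1.08 for the 2946 named genes under 10 kb and 3.36 for the 560 genes of at least 300 kb, a group that includes Piezo2 at 6.12. Trpc6, of 105 kb, was at 4.06 where genes of 100 to 300 kb had a median of 1.47. The part of gene span in these ratios was not tested. In the paper, nuclei of taPVAT were spun at a lower speed than those of the rat white depots, and no speed is given for BAT. It also saw no clear inflection point between nuclei and background in mesPVAT or RP fat. Depot, isolation, depth and background RNA cannot be told apart between the brown and white libraries.

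Over all libraries, 5 of the 10 members had at least 20 UMIs over the 5 classes in at least 4 libraries, namely Piezo1, Piezo2, Trpm7, Pkd1 and Tmem63b. Only Pkd1 was at least 2-fold higher in 1 class in at least 4 libraries, in Pdgfra-only nuclei, where 2.37% of 5790 genes were. That call was lost under the study's filters, with at least 500 UMIs per nucleus, with any nucleus holding Pdgfra and with at least 2 UMIs of Pdgfra. It was also lost in each sublibrary alone, where Piezo2 was called instead. The limit there was 3 libraries and not 4, and the 10x library, which has no sublibraries, did not enter. The change of member is therefore not a change under the same rule. No member met that limit in Plin1-only (3.87% of genes), Ptprb-only (5.22%), Notch3-only (1.76%) or Ptprc-only nuclei (2.88%). Piezo2 was at least 2-fold higher in Pdgfra-only nuclei in 3 of 5 libraries and in Notch3-only nuclei in 3 of 5, of which taPVAT rested on the single nucleus named above. In mesPVAT on Parse the Notch3-only ratio of Piezo2 was 2.48 (1.15 to 4.78) on 10 UMIs. Without 1 nucleus of 2 UMIs it was 2.01 (0.842 to 4.15), an interval that includes 1. Piezo1 was at least 2-fold higher in Plin1-only nuclei in 2 of 6 libraries and in Ptprb-only nuclei in 1, the cow library. Pkd1 was so in Ptprb-only and in Notch3-only nuclei in 2 of 5 libraries each, and in Ptprc-only nuclei in 1. Trpc6 was so in Notch3-only nuclei in all 3 libraries that had enough UMIs. Of these, taPVAT and BAT rested on the few UMIs given above. Trpc6 was also at least 2-fold higher in Ptprc-only nuclei in 2 of the 3 libraries, taPVAT and BAT, and in Ptprb-only nuclei in 1 rat library. Each of these values rested on fewer than 10 UMIs in the class. In cow WAT the TRPC6 ratio was 0.217 in Ptprc-only and 0.139 in Ptprb-only nuclei.

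Lists of related genes were counted in the same way in each of the 5 classes. Of all 5790 genes tested, 1.76% (Notch3-only) to 5.22% (Ptprb-only) were raised in a class, with 3.87% in Plin1-only nuclei. Whether the lists differed from these shares was not tested. Of 18 other mechanosensitive and volume-sensing channels, 8 were tested and 1 was raised, Tmem120a (TACAN, an ion channel-like protein of the nuclear envelope that acts in adipocyte differentiation), in Plin1-only nuclei. It was at 4.71 to 14.99 times the other classes in all 6 libraries (9 UMIs in RP fat), with 1280 CPM on 10x, 147 CPM in taPVAT, 141 CPM in BAT and 51.2 CPM in cow WAT. Of 14 Hippo-YAP/TAZ genes, which carry signals of cell stretch to the nucleus, 9 were tested. Amotl2, an inhibitor of YAP, was raised in Plin1-only nuclei (2.82-fold in taPVAT and 3.20-fold in BAT), and Wwtr1, which encodes TAZ, in Ptprb-only nuclei (9.30-fold in taPVAT and 2.34-fold in cow WAT). Of 8 genes of the endothelial response to shear 4 were tested and 2 were raised, Nos3 and Klf2, both in Ptprb-only nuclei. Nos3, the endothelial nitric oxide synthase, stood at 33.1 times the other classes in BAT and 15.8 times in cow WAT. None was raised among the 2 tested of 4 Piezo partners, the 7 tested of 8 primary cilium genes or the 9 tested of 12 genes of store-operated calcium entry and calcineurin-NFAT.

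The genes with the most similar profile over the 5 classes of taPVAT, BAT and cow WAT (15 profiles, Pearson's r of log2 CPM with 10 added, among 9854 genes) were taken as a description. The profiles share libraries and depth, and rat and cow levels both enter. For Trpc6 they were ANO3 (0.93), NDST3 (0.88) and RERGL (0.88). For Piezo2 they were ANGPT4 (0.91), SLIT2 (0.88) and COL16A1 (0.87), for Piezo1 NOSIP (0.92), BAZ1B (0.92) and LPIN2 (0.90), and for Pkd1 KSR1 (0.88), MAML2 (0.88) and RCN3 (0.86).

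Upstream sequence was at hand for 7 of the 10 genes. Those of Trpm7 and Trpc6 are shown because in cow WAT the class ratios of the former lay between 0.564 and 1.21 and the latter reached 23.5. The sequences are of the rat, whereas these ratios were measured in the cow. Each is the 250 bases before the gene's start in RefSeq on GRCr8, 5′ to 3′ on the strand of the gene, with CG pairs in capitals. The first lies at chr3:134588114-134588363 on the minus strand and the second at chr8:14043966-14044215 on the plus strand.
Trpm7: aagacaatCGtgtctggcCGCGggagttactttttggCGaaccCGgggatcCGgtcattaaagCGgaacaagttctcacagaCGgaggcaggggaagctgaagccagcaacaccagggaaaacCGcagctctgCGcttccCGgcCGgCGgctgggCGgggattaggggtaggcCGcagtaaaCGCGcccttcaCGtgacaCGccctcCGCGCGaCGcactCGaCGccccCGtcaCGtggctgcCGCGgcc
Trpc6: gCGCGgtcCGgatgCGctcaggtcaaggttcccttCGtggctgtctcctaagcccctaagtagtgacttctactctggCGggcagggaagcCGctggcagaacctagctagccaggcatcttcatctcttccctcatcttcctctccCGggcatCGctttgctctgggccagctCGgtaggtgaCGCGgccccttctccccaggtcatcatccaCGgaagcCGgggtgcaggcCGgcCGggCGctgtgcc
The Trpm7 sequence holds 29 CG pairs, more than 93.7% of the 27457 upstream sequences in the table, and the Trpc6 sequence 17, more than 76.3%. The median sequence holds 6. The 7 members had 16 to 29 CG pairs, all above the median.

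RefSeq on GRCr8 places other genes over parts of some members, namely Ctu2 over Piezo1, Tsc2 over Pkd1, Mrpl14 over Tmem63b, and unnamed loci over Trpc6 and Tmem63a. UMIs in the overlapping stretch may belong to either gene.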

How the data were processed

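Parse reads were separated into rat and cow by the authors, mapped to GRCr8 or ARS-UCD1.3 using split-pipe, and deposited as filtered tables of UMI counts per gene and nucleus, unnormalized, with 2 sublibraries joined. The 10x counts were deposited as the cell-called output of Cell Ranger 7.1.0. Its genome is named as Rnor_6.0 in the supplementary methods, and no coordinates were given from it. Deposited metadata gave counts of reads, UMIs and genes per nucleus. All deposited nuclei were used, and doublets were not removed, so nuclei with UMIs of several of the 5 marker genes (0.425% to 31.9% of a library) were kept out of the single-marker classes. A nucleus in a marker panel had at least 2 UMIs of that panel, more than of any other. The adipocyte, endothelial, ASPC, mural and immune panels include the 5 marker genes.

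From the counts, CPM, shares and exact intervals at 95% were computed with scipy 1.17.1, numpy 2.4.6 and pandas 2.3.3 under Python 3.11.15, and plotted with matplotlib 3.10.9. A gene was tested between libraries with at least 20 UMIs over both, and a class ratio in a library with at least 20 UMIs over the 5 classes. No batch value could be given apart from platform, since batch 1 is the 10x library alone. Samples were grouped by their labels. The steps were tested on simulated data. Genes named were the 10 members, the 5 markers, up to 3 raised genes per related list and the 3 most similar genes per member. The members, lists and rules were chosen with earlier results of these data known. Alternatives were the study's filters (at least 100 and at most 15000 UMIs, at most 4500 genes, at most 3% mitochondrial UMIs, 5 median absolute deviations), a minimum of 500 UMIs, other scalings, limits and class definitions, single sublibraries, and 1 added after seeing the data, leaving out the nucleus with most UMIs.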

Additional observations from a re-analysis of the deposited data

How the results depend on the processing

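With 1 library per condition no result has a replicate check. No paired analysis was possible because each group holds 1 library and no result comes from a test over samples. The count of members called between mesPVAT and RP fat, 0, became 1 with at least 500 UMIs per nucleus and in each sublibrary alone, and 2 at a 1.5-fold limit. The sublibraries did not share the member called or its direction. In sublibrary 1 it was Trpv4, higher in RP fat, and in sublibrary 2 Trpm7, higher in mesPVAT. Between mesPVAT on 10x and Parse, 6 became 3 with at least 500 UMIs, which kept 262 nuclei on 10x. Brown against white, 3 became 5 when scaled to the median ratio, with Piezo2 and Trpc6 lost, and Tmem63b was lost in sublibrary 2 alone (1.97-fold). For Pdgfra-only nuclei, 1 member (Pkd1) became 0 under the study's filters, with at least 500 UMIs, with any nucleus holding the marker, and with at least 2 UMIs of it, and became 2 (Pkd1 and Piezo2) with marker panels, at 1.5-fold and with at least 5 UMIs. In each sublibrary alone the count stayed 1, but the member was Piezo2. Class counts in a sublibrary used a limit of 3 libraries, without the 10x library. Notch3-only nuclei went from 0 to 2 with at least 5 UMIs and 1 in sublibrary 1, and Ptprc-only nuclei from 0 to 1 with at least 5 UMIs. The other 59 counts under alternatives stayed within 1.5 times. No value that was called changed direction. Shares of positive nuclei moved beyond their interval in 46 of 56 cases on thinning, and levels in 19 of 56 without mitochondrial genes and the most abundant gene.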

Other observations

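Small groups of nuclei held high levels of Piezo2 in the cow library. The 13 cow nuclei placed by lymphatic endothelial markers held PIEZO2 at 900 CPM (31 UMIs; 612 to 1278), against 55.4 CPM in the 601 endothelial-panel nuclei. The corresponding rat nuclei had 1 to 5 Piezo2 UMIs per library, for example 298 CPM on 5 UMIs in 14 nuclei of taPVAT and 411 CPM on 4 UMIs in 17 nuclei of mesPVAT on Parse.

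The 5 cow Schwann-panel nuclei held no PIEZO2 UMI, which allows up to 213 CPM.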
